A study of Danio rerio with 8 samples.

Results

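Apolipoproteins are the proteins that wrap triglyceride and cholesterol into lipoprotein particles and carry them through the blood. In the list used here were 10 zebrafish apolipoprotein genes known to be active in liver or gut: apoa1a, apoa1b, apoa2, apoa4a, apoba, apobb.1, apoc1, apoc2, apoea and apoeb. A gene was taken where its symbol stood as the gene symbol of a transcript cluster, the set of probes that an array sums up as 1 gene, and 9 of the 10 had such a cluster among the 59300 clusters tested. Each of the 9 had 1 cluster. The symbol apoc1 stood on none. The cluster annotated apoc1l, which the RefSeq gene table lists as an older name of apoc1, is described with the other apolipoproteins.

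RNA of whole liver from wild-type zebrafish of the AB strain was measured on 8 arrays. The fish entered the experiment at 5 months of age and were 6 months old by the labels of the arrays. The OF fish received oligo-fucoidan, a low-molecular-weight form of the sulfated seaweed polysaccharide fucoidan, at 300 mg/kg by oral gavage, 3 times a week for 1 month, and the control fish were untreated (mock). The experiment was run in 2 batches, each with 2 control and 2 OF arrays, and the comparison asks which liver genes differ with OF feeding. No fish carried a mutation or a transgene, and the sources used here do not state their sex. The labels number the samples, and the study describes the arrays of a group in a batch as separate fish.

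In vertebrates, apolipoprotein A-I and A-II coat high-density lipoprotein, which returns cholesterol to the liver. Apolipoprotein B is the single large protein around which the liver and gut build very low-density lipoprotein and chylomicrons, and it stays with the particle. Apolipoproteins C and E move between particles, C-II as the cofactor of lipoprotein lipase and E as the ligand by which receptors clear the remnants. Many of these genes are kept as pairs in zebrafish, marked a and b.

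Values are log2 signals, and a change is the log2 signal with OF minus that of controls. The signals of different probes cannot be set against each other, so levels are compared only within a gene. A gene was called changed by the study's own thresholds, more than 2-fold at a p under 0.05 without adjustment, here in limma's moderated test, and the p adjusted over all 59300 clusters (Benjamini-Hochberg) stands beside it. Over both batches, 0.54% of all clusters were called higher and 0.474% lower. In batch 1 these shares were 3.26% and 3.47%, and in batch 2 they were 2.55% and 3.12%. The OF change differed between the batches, by the same thresholds, upward in 6.42% and downward in 5.88% of clusters. An adjusted p under 0.05 was reached by 0.0% of clusters over both batches, by 0.0% in batch 1, by 0.0101% in batch 2 and by 0.00506% for the difference between batches. No apolipoprotein gene was among them.

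The arrays differed in more than the feeding. The mean log2 signal of 12 hepatocyte markers lay between 11.20 and 12.63 on all 8 arrays. Part of that range came from serpina1, the marker that varied most, from 4.205 to 11.78. These levels do not show that RNA of other tissue was absent. The germ line and exocrine pancreas means, given below, differed between arrays. Estrogen-responsive genes of the hepatocyte, of which vtg2, vtg3, vtg6 and esr1 were measured, are those that make egg yolk precursor under estrogen and its receptor. Their mean log2 signal was 2.74 and 2.80 in the batch 1 controls, 10.38 and 12.02 with OF in batch 1, 12.73 and 12.84 in the batch 2 controls, and 12.72 and 2.74 with OF in batch 2. Both controls of batch 1 and replicate 2 of OF in batch 2 thus stood apart from the other 5 arrays. In batch 1 this difference and the feeding cannot be told apart. Within batch 2 it falls inside the OF group, and values without replicate 2 of OF are given for a part of the named genes. They are given mainly where a call in batch 2 or for the difference between batches changed, though not for every such gene. For genes other than the 9 this setting, without that array, was chosen after the data were seen. Among brighter clusters, those with a mean log2 signal of at least 4, controls of batch 2 lay a median of 0.92 above controls of batch 1, and batch 1 and batch 2 have their own controls throughout.

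apoa1a, 1 of the 2 zebrafish genes for apolipoprotein A-I, the main protein of high-density lipoprotein, varied most of the 9 genes over the arrays. Its log2 signal was 11.04 and 11.66 in the batch 1 controls and 8.17 and 8.22 with OF in batch 1. The batch 2 controls read 5.59 and 4.1, and the OF arrays of that batch 7.86 and 11.92. The groups did not overlap in either batch, and they lay in opposite order: OF was below its controls in batch 1 and above them in batch 2. In batch 1 apoa1a fell by 3.15 on the log2 scale (SE 0.27, n = 2 per group, adjusted p = 0.152 in limma), an 8.9-fold lower signal. It rose by 5.04 in batch 2 (SE 1.47, adjusted p = 0.397 in limma). The 2 changes differed by 8.20 (SE 1.75, adjusted p = 0.15 in limma). Over both batches the change was 0.94 (SE 1.76), with a 95% interval from -3.22 to 5.10.

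The controls alone of the 2 batches lay further apart in apoa1a than OF and control did in either batch. Their means were 11.35 and 4.85, and the OF means of 8.19 and 9.89 lay between them. The 3 arrays with the highest apoa1a signal, 11.04, 11.66 and 11.92, are the 3 arrays on which the vitellogenin and esr1 mean was 2.74 to 2.80. The other 5 arrays had an apoa1a signal of 4.1 to 8.22. What part the estrogen-responsive state has in the apoa1a values was not tested. Without replicate 2 of OF in batch 2, the apoa1a change in batch 2 was 3.01 and still passed the thresholds, and the difference between batches was 6.17. Without replicate 1 of OF in batch 2 the change was 7.07. It no longer passed the thresholds when either control of batch 2 was left out, with changes of 5.79 and 4.30.

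**Figure D1:**
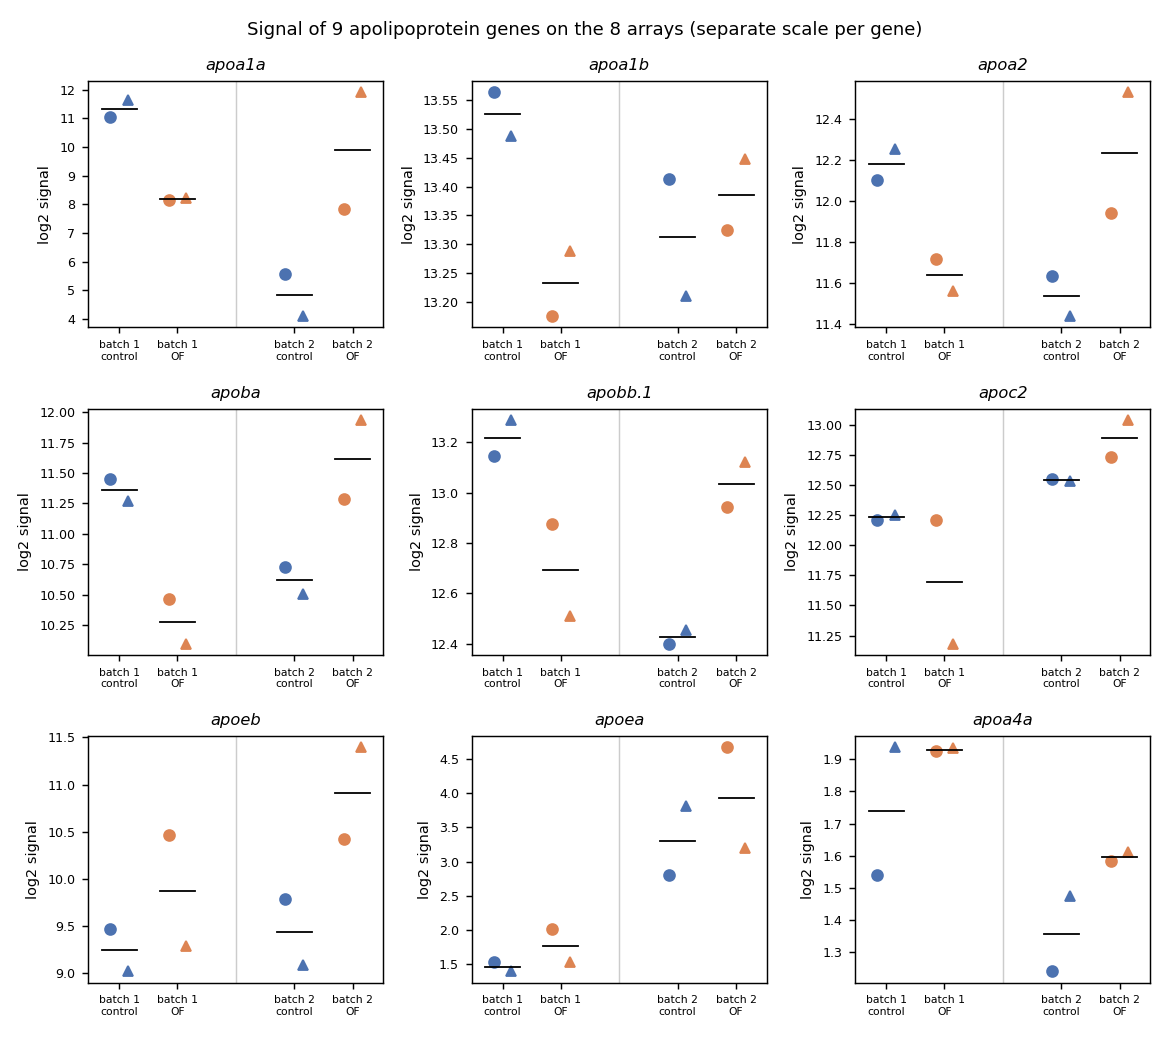
Log2 signal (vertical axes, a separate scale per gene) of the 9 apolipoprotein genes on each of the 8 arrays, in the order batch 1 control, batch 1 OF, batch 2 control and batch 2 OF. Blue marks controls and orange OF, circles are replicate 1 and triangles replicate 2, and the line is the mean of the 2 arrays. For apoa1a, apoa2, apoba, apobb.1 and apoc2 both OF arrays lie below both controls in batch 1, by a hair for the first apoc2 array, and above both in batch 2.

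The other apolipoprotein A-I gene, apoa1b, showed no such range. Its log2 signal was 13.56 and 13.49 in the batch 1 controls, 13.17 and 13.29 with OF in batch 1, 13.41 and 13.21 in the batch 2 controls, and 13.32 and 13.45 with OF in batch 2. OF lay below both controls in batch 1, and the groups overlapped in batch 2. The change was -0.29 (SE 0.17) in batch 1, 0.07 (SE 0.21) in batch 2 and -0.11 over both, with a 95% interval from -0.42 to 0.20. These signals are near the top of the scale, where the brightest cluster of an array reads about 14, and a saturated probe set would show little change. The annotation also gives this cluster a cross-hybridisation flag of 1 beside a flag of 0, and 0 alone for the others of the 9.

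apoa2, the gene of the second high-density lipoprotein protein, moved like apoa1a but less. The batch 1 controls had log2 signals of 12.10 and 12.26 and the OF arrays of that batch 11.72 and 11.56. The controls of batch 2 read 11.63 and 11.44, against 11.94 and 12.53 with OF. No groups overlapped within a batch. The change was -0.54 in batch 1 (SE 0.18, adjusted p = 0.443 in limma) and 0.70 in batch 2 (SE 0.28, adjusted p = 0.55 in limma), neither of them past the fold threshold. The difference between batches, 1.24 (SE 0.34, adjusted p = 0.197 in limma), passed both thresholds. Without replicate 2 of OF in batch 2 it was 0.94 and no longer did, and the change in batch 2 was 0.40.

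apoba, 1 of the genes for apolipoprotein B, had a log2 signal of 11.45 and 11.27 in the batch 1 controls and of 10.46 and 10.10 with OF in batch 1. Controls of batch 2 read 10.73 and 10.51, and the OF arrays 11.29 and 11.94. Again no groups overlapped, with OF below the controls in batch 1 and above them in batch 2. apoba fell by 1.08 in batch 1 (SE 0.22, adjusted p = 0.281 in limma), a 2.11-fold lower signal. It fell short of the fold threshold without replicate 1 of the controls or replicate 2 of OF, with changes of -0.99 and -0.90. In batch 2 its change of 0.99 (SE 0.30, adjusted p = 0.413 in limma) missed the fold threshold, and without replicate 1 of OF it was 1.32 and passed, while without replicate 2 of OF it was 0.67. The difference between batches of 2.07 (SE 0.39, adjusted p = 0.134 in limma) passed with every array left out in turn, from 1.75 to 2.40. Over both batches the change was -0.04, with a 95% interval from -1.06 to 0.98.

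apobb.1, the second apolipoprotein B gene measured, is the one best known from zebrafish lines that report the protein with a tag or lack it. The log2 signal was 13.15 and 13.29 in the batch 1 controls, 12.88 and 12.51 with OF in batch 1, 12.40 and 12.46 in the batch 2 controls, and 12.94 and 13.12 with OF in batch 2. As for apoba, OF lay below the controls in batch 1 and above them in batch 2, with no overlap within a batch. The changes were -0.53 (SE 0.22, adjusted p = 0.522 in limma) and 0.61 (SE 0.20, adjusted p = 0.452 in limma), both under the fold threshold. They differed by 1.13 (SE 0.28, adjusted p = 0.172 in limma), which passed both thresholds. That difference was 0.95 without replicate 2 of OF in batch 1 and then no longer passed. apobb.2, also an apolipoprotein B gene but outside the list of members, did not share this order, and its groups overlapped in both batches. Its log2 signal was 10.34 and 10.42 in the batch 1 controls and 11.06 and 9.94 with OF in batch 1. The batch 2 controls read 9.745 and 8.87, and the OF arrays of that batch 11.09 and 8.015. The overlap in batch 2 thus rested on replicate 2 of OF, and without that array the change there was 1.78.

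apoc2, for the cofactor that lipoprotein lipase needs to release fatty acids from particles, had a log2 signal of 12.21 and 12.25 in the batch 1 controls and of 12.21 and 11.18 with OF in batch 1. The arrays of batch 2 read 12.55 and 12.53 without OF and 12.73 and 13.04 with it. In batch 1 the first OF array was level with the lower control, under it by less than the printed digits, and the second was about 1 log2 unit below. In batch 2 both OF arrays lay above both controls. The changes of -0.54 (SE 0.40) and 0.34 (SE 0.22) were under the fold threshold, and their difference of 0.88 (SE 0.48) did not pass either (adjusted p = 0.49 in limma). Without replicate 1 of OF in batch 1 the change in batch 1 was -1.05 and the difference 1.40, and both passed. Without replicate 2 of OF in batch 1 they were -0.02 and 0.37 and did not, so that the lower apoc2 mean in batch 1 rested on that 1 array.

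apoeb, 1 of the pair of genes for apolipoprotein E, was the gene called over both batches. Log2 signals of 9.47 and 9.02 in the batch 1 controls stood beside 10.46 and 9.29 in its OF arrays. Those of the batch 2 controls, 9.79 and 9.08, stood beside 10.42 and 11.39 with OF. The groups overlapped in batch 1 and did not in batch 2. Over both batches apoeb rose by 1.05 (SE 0.38, 95% interval 0.15 to 1.95, adjusted p = 0.955 in limma), a 2.07-fold higher signal. An exact two-sided permutation test of the OF labels within batches gave p = 0.111 over 36 arrangements, of which the smallest possible p is 0.0556. It rose by 1.47 in batch 2 (SE 0.45, adjusted p = 0.416 in limma), and in batch 1 the change was 0.63 (SE 0.48, adjusted p = 0.732 in limma). The 2 changes differed by 0.85, with a 95% interval from -0.91 to 2.60.

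The call of apoeb over both batches rested on single arrays. It was lost without replicate 2 of the batch 1 controls, replicate 1 of OF in batch 1, replicate 2 of the batch 2 controls or replicate 2 of OF in batch 2. The change then lay between 0.77 and 1.04, and over all 8 arrays left out in turn it lay between 0.77 and 1.37. The call in batch 2 was lost without replicate 2 of its controls or replicate 2 of OF, with changes of 1.12 and 0.99. In batch 1 the change was 0.04 without replicate 1 of OF and 1.22, past the thresholds, without replicate 2.

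apoea and apoa4a were dim. apoea, the other apolipoprotein E gene, had a log2 signal of 1.53 and 1.40 in the batch 1 controls, 2.01 and 1.54 with OF in batch 1, 2.80 and 3.82 in the batch 2 controls, and 4.67 and 3.20 with OF in batch 2. All arrays of batch 2 lay above all of batch 1. The OF arrays lay just above the controls in batch 1 and overlapped them in batch 2, with changes of 0.31 (SE 0.24) and 0.63 (SE 0.63). apoa4a, for an apolipoprotein A-IV known mainly from intestine in zebrafish larvae, stayed between 1.24 and 1.94 on all arrays, below the median cluster of every array, and its change over both batches was 0.22 (SE 0.13). At such signals a difference is hard to detect on these arrays.

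Of the 9 genes, 1 was called higher over both batches (apoeb) and 0 lower. In batch 1, 2 were called lower (apoa1a and apoba) and 0 higher, and in batch 2, 2 were called higher (apoa1a and apoeb) and 0 lower. The difference between batches was called for 4, all upward (apoa1a, apoa2, apoba and apobb.1). These are counts over 9 genes, of which 7 are brighter clusters. Among all 16893 brighter clusters the share called was 1.04% higher over both batches, 9.1% lower in batch 1, 6.32% higher in batch 2 and 15.3% upward for the difference between batches. At an unadjusted p under 0.05 alone the genes numbered 1 over both batches, 3 in batch 1, 4 in batch 2 and 4 for the difference.

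In batch 1 both OF arrays lay below both controls for 6 of the 9 genes and above them for 1 (apoea). In batch 2 they lay above for 7 and below for 0. Over all clusters, 23.9% had both OF arrays below both controls in batch 1 and 21.0% above in batch 2, and among brighter clusters these shares were 29.2% and 26.2%. For 5 genes both held, below in batch 1 and above in batch 2, as they did for 6.62% of all clusters and 11.2% of brighter ones. apoc2 was 1 of them, though its first OF array of batch 1 was level with the lower control to the printed digits. These 5 genes cannot be counted as independent of each other. After the batch means were taken off, Pearson's r over the arrays was 0.88 to 0.99 between apoa1a, apoa2, apoba and apobb.1. It was 0.61 to 0.83 between apoc2 and these. The OF differences of each batch stay in these values, so r is partly set by the order for which the 5 were picked. apoa1b, which lacks that order, had an r of 0.58 to 0.78 with apoa1a, apoa2, apoba and apobb.1. The median change of the 9 genes was -0.53 in batch 1 and 0.63 in batch 2, beside -0.03 and 0.03 over all clusters and -0.10 and 0.03 over brighter ones. Over both batches the median was 0.08.

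**Figure D2:**
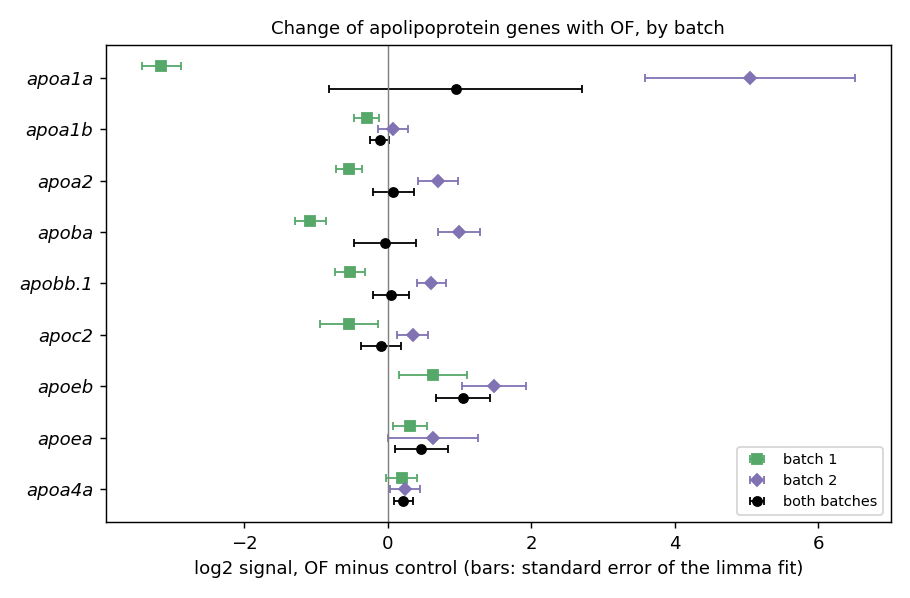
Change in log2 signal, OF minus control (horizontal axis), of each apolipoprotein gene in batch 1 (green squares), in batch 2 (purple diamonds) and over both batches (black circles); bars are standard errors of the limma fit. The values of apoa1a lie furthest apart, at -3.15 and 5.04, while those of apoeb are 0.63 and 1.47.

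Beside the estrogen-responsive genes, several marker lists moved with the groups. The 12 hepatocyte markers, themselves genes of secreted liver proteins for the most part, had a lower mean with OF for 11 in batch 1 and a higher mean for 12 in batch 2, with medians of -0.29 and 0.27 and none called. Without replicate 2 of OF in batch 2 the median in batch 2 was 0.08. In bulk tissue, fewer cells of a type and less RNA of a gene per cell cannot be told apart. Of 11 erythrocyte genes measured, which include the globin genes hbaa2 and hbba2, 7 were called lower in batch 1 and 5 called higher in batch 2. The median change of the 11 in batch 2 was 1.42, or 0.30 without replicate 2 of OF in that batch. Their mean log2 signal was 4.53 to 5.46 in the batch 1 controls, 2.86 to 3.20 with OF in batch 1, 4.11 to 4.33 in the batch 2 controls and 4.72 to 5.94 with OF in batch 2. As for apoba, OF lay below the controls in batch 1 and above them in batch 2. Of 9 germ line and oocyte genes, 8 were called higher in the OF arrays of batch 1 and 0 in those of batch 2, with list means of 1.87 to 2.03, 4.53 to 6.60, 2.83 to 3.63 and 1.98 to 3.66 in the 4 groups in turn. The mean of 13 exocrine pancreas genes lay between 2.41 and 6.90 over the arrays, lowest in the first OF array of batch 1, and 0 of them were called in any comparison. Macrophages are a known site of apolipoprotein E expression in mammals. Of 10 macrophage genes measured, 2 were called higher in batch 1 (ctss2.1 and mfap4), 1 in batch 2 (mpeg1.2) and 1 over both batches (mfap4). The 10 genes did not move together: 4 had a lower mean with OF in batch 1 and 3 in batch 2, with medians of 0.05 and 0.37. Their mean was lowest, at 3.51, on the batch 1 control where apoeb was lowest and highest, at 5.09, on the batch 2 OF array where apoeb was highest. On the other arrays it lay between 4.19 and 4.83, in another order than apoeb. It was 4.83 in replicate 1 of the batch 1 controls, where apoeb read 9.47. In replicate 1 of OF in batch 1 it was 4.455, where apoeb read 10.46. The part of these lists in the apolipoprotein values was not tested.

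**Figure D3:**
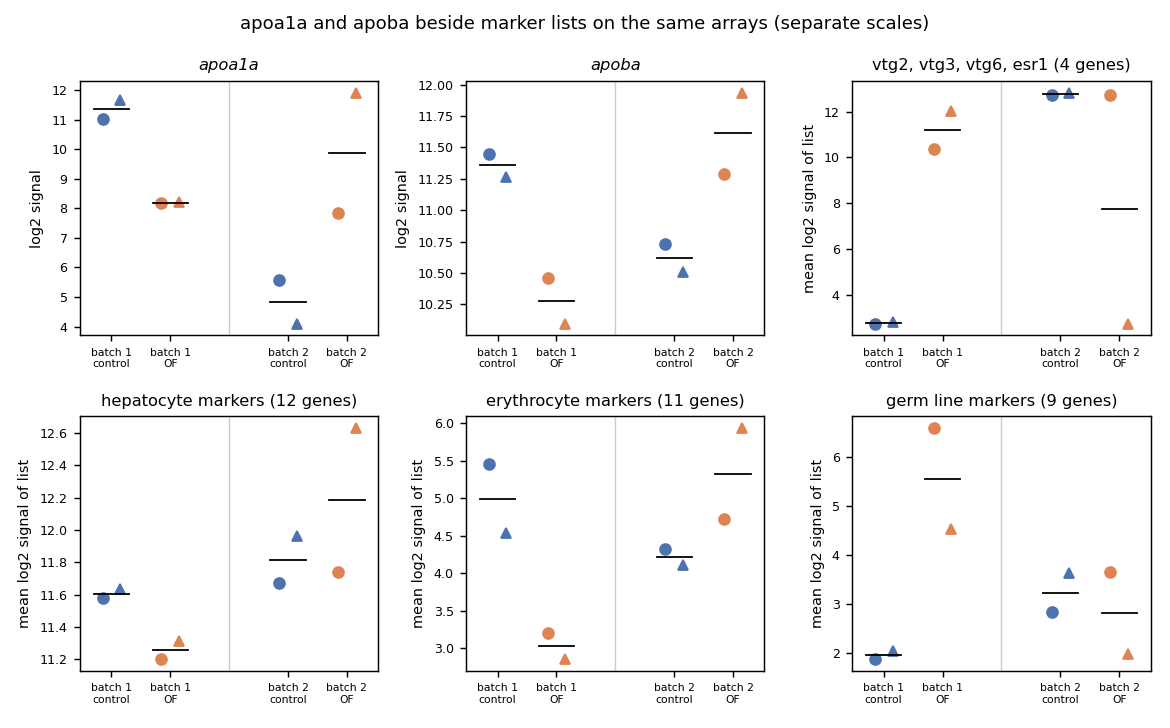
Log2 signal of apoa1a and apoba, and mean log2 signal of 4 marker lists, on each of the 8 arrays (separate vertical scales; blue control, orange OF, circles replicate 1, triangles replicate 2, line the mean of 2 arrays). The vitellogenin and esr1 mean is 2.74 to 2.80 on the 3 arrays where apoa1a is 11.04 or more, and the erythrocyte mean is lowest where apoba is lowest, with OF in batch 1.

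Of 16 other apolipoprotein genes listed, 12 were measured. apof, for apolipoprotein F, an inhibitor of lipid transfer between particles in mammals, had a log2 signal of 8.31 and 7.25 in the batch 1 controls and 1.97 and 2.26 with OF in batch 1. The batch 2 controls read 7.35 and 6.78 and its OF arrays 6.31 and 8.71, so that these groups overlapped. There were 2 clusters of apof, and only the brighter is given here. On it apof fell by 5.66 in batch 1 (SE 0.42, adjusted p = 0.123 in limma). The change differed between batches by 6.10 (SE 1.1, adjusted p = 0.128 in limma). The OF arrays of batch 1 lie near the median cluster of the array for apof, so that the size of its change there is only a lower limit. The difference was 4.91 without replicate 2 of OF in batch 2. On all arrays apof was the 1 gene of the list called within a batch. The difference between batches was also called for apoc4 at 1.59, apom at 1.07 and apoa4b.3 at 2.58, and without replicate 2 of OF in batch 2 it was 1.45, 0.93, which did not pass, and 1.42. apom, for the carrier of sphingosine 1-phosphate on high-density lipoprotein, changed by -0.08 in batch 1 and 0.99 in batch 2. apoa4b.2, of the apolipoprotein A-IV genes, was dim, at 1.04 to 2.83 over the arrays, and changed by 0.57 over both batches, which did not pass. Without replicate 2 of OF in batch 2 its change there was 1.75 and the difference between batches 1.66. Both then rest on the 1 OF array left in batch 2, which read 2.83.

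The cluster annotated apoc1l had a log2 signal of 12.83 and 12.96 in the batch 1 controls, 12.86 and 12.73 with OF in batch 1, 12.78 and 12.56 in the batch 2 controls, and 12.91 and 13.09 in the OF arrays of batch 2. The changes of -0.10 and 0.33 did not pass the test. All 12 genes of the list had a higher mean with OF in batch 2, with a median of 0.39, and 8 of 12 a lower one in batch 1, with a median of -0.07.

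Lipoprotein assembly loads lipid onto apolipoprotein B in the endoplasmic reticulum and ships the particle in large transport vesicles. Of 18 genes listed for it, 16 were measured, and 0 were called over both batches. In batch 1, 4 were called lower and 0 higher, and in batch 2, 3 were called higher and 5 lower. mttp, for the transfer protein that lipidates apolipoprotein B, had a log2 signal of 9.23 and 8.51 in the batch 1 controls, 8.60 and 8.43 with OF in batch 1, 10.87 and 11.18 in the batch 2 controls, and 9.62 and 10.18 with OF in batch 2. It fell by 1.13 in batch 2 (SE 0.29, adjusted p = 0.339 in limma), where apoba and apobb.1 lay higher with OF. Over both batches it changed by -0.74, as did sar1b, for a GTPase of the transport vesicle coat, and neither passed the fold threshold.

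Several assembly genes lay lower with OF in batch 1 and higher in batch 2, as apoa1a, apoa2, apoba and apobb.1 did. dgat1a, for an enzyme of the last step of triglyceride synthesis, had log2 signals of 5.70 and 6.26 in the batch 1 controls, 2.79 and 3.84 with OF in batch 1, 6.50 and 5.74 in the batch 2 controls, and 7.31 and 7.76 with OF in batch 2. It fell by 2.67 in batch 1 and rose by 1.42 in batch 2, and the difference of 4.09 (SE 0.63, adjusted p = 0.12 in limma) passed the thresholds. Without replicate 2 of OF in batch 2 its change there was 1.2 and did not pass, and the difference was 3.86 and did. Over the list, the median change in batch 2 was then -0.55, against -0.30 on all arrays. creb3l3b, for a transcription factor that in mammals acts on apolipoprotein and lipase cofactor genes, fell by 1.04 in batch 1 and rose by 1.14 in batch 2. The vesicle coat genes went the other way in batch 2: sec24c fell by 1.05 and sec24d by 1.55 there. The difference between batches was called for 6 genes upward and 3 downward.

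Plasma enzymes and transfer proteins remodel the particles after secretion. Of 12 genes listed, 10 were measured, and 1 was called over both batches. This was cetp, for the protein that swaps cholesteryl ester for triglyceride between particles, which fell by 1.51 (SE 0.56, adjusted p = 0.955 in limma). The log2 signal was 10.72 and 11.11 in the batch 1 controls, 7.70 and 8.46 with OF in batch 1, 12.50 and 12.08 in the batch 2 controls, and 11.67 and 12.52 with OF in batch 2. The groups were apart in batch 1 and overlapped in batch 2, so that the change lay in batch 1, where cetp fell by 2.84, against -0.19 in batch 2 (difference 2.64, or 2.22 without replicate 2 of OF in batch 2, adjusted p = 0.149 in limma).

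lpl, for the lipase that apolipoprotein C-II activates, fell by 1.61 in batch 1 and changed by -0.24 in batch 2. Over both batches it fell by 1.2 and passed the thresholds without replicate 2 of OF in batch 2, against -0.92 on all arrays. lcat, for the enzyme that esterifies cholesterol on high-density lipoprotein with apolipoprotein A-I as cofactor, rose by 1.09 in batch 2 and changed by -0.75 in batch 1. Both the batch 2 change, then 0.98, and the difference between batches, then 1.74, missed the thresholds without replicate 2 of OF in batch 2, and so did the difference of lpl, then 1.02. lipg, for endothelial lipase, which acts on high-density lipoprotein, went against apoa1a. It rose by 3.77 in batch 1 and fell by 2.00 in batch 2, or by 1.03 without replicate 2 of OF. Its log2 signal was 3.93 and 1.81 in the batch 1 controls and 7.69 and 5.59 with OF in batch 1. The batch 2 controls read 6.70 and 7.09, and the OF arrays 5.87 and 3.93. It was lowest on the 3 arrays with low vitellogenin and esr1 signal, and the part of that state in the lipg values was not tested. angptl4, for an inhibitor of lipoprotein lipase, fell by 1.55 in batch 2.

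Of 18 genes for receptors and transporters, 16 were measured. vldlr, for a receptor that binds particles with apolipoprotein E, was the 1 gene called over both batches and in each of them. The log2 signal was 2.75 and 2.50 in the batch 1 controls, 6.89 and 4.45 with OF in batch 1, 3.97 and 4.52 in the batch 2 controls, and 5.29 and 6.47 with OF in batch 2. OF lay above both controls in each batch, and vldlr rose by 2.34 over both (SE 0.60, adjusted p = 0.955 in limma), by 3.05 in batch 1 and by 1.63 in batch 2. The rise in batch 2 was 1.04 without its replicate 2 of OF and still passed. In egg-laying vertebrates this receptor also takes up vitellogenin into the oocyte, and in batch 1 the germ line and oocyte mean was highest, at 6.60, on the array where vldlr was highest. The germ line mean of batch 1 was 1.87 and 2.03 in the controls and 6.60 and 4.53 with OF. In batch 2 the array with the highest vldlr, replicate 2 of OF, had a germ line mean of 1.98, the lowest of that batch. On the other arrays of batch 2 that mean was 2.83 and 3.63 in the controls and 3.66 in replicate 1 of OF, in the order of vldlr. The part of germ line RNA in the vldlr values was not tested. scarb1, for the receptor of high-density lipoprotein, rose by 2.94 in batch 1 and changed by 0.00 in batch 2. There its OF arrays read 6.26 and 4.18, and the controls 4.51 and 5.93. The batch 2 arrays had the same order in scarb1 as in the germ line and oocyte mean. In batch 1 scarb1 read 3.45 and 3.22 in the controls and 7.45 and 5.11 with OF, highest where that mean was highest. The part of germ line RNA in the scarb1 values was not tested. Without replicate 2 of OF in batch 2 the scarb1 change was 1.04 in batch 2 and 2.18 over both batches. lsr and sort1b, a remnant receptor and a sorting receptor of apolipoprotein B, changed by 0.40 and -0.83 over both batches, under the fold threshold. On all arrays sort1b changed by -1.20 in batch 2 and was the 1 gene of the list called lower there. Without replicate 2 of OF that change was -1.10 and no longer passed. ldlrap1a and lrp1ab were the other genes named by the rule, with differences between batches of -2.52, which did not pass, and 1.07, which did. The latter was 0.89 without replicate 2 of OF in batch 2 and no longer passed. Outside the rule, ldlra, for the receptor of low-density lipoprotein, fell by 1.39 in batch 1, where the groups did not overlap. In batch 2 it read 10.61 and 10.97 in the controls and 8.87 and 11.10 with OF. Without replicate 2 of OF in batch 2 the ldlra change was -1.92 in batch 2 and -1.60 over both batches.

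Of 21 transcription factor genes known to act on apolipoprotein genes, 20 were measured, and 2 were called lower over both batches and 0 higher. hnf4a, for the nuclear receptor that binds the promoters of many apolipoprotein genes in mammals, read 8.09 and 7.26 on the log2 scale in the batch 1 controls, 6.50 and 6.49 with OF in batch 1, 8.70 and 8.68 in the batch 2 controls, and 7.28 and 8.15 with OF in batch 2. OF lay below both controls in each batch. hnf4a fell by 1.08 over both (SE 0.25, adjusted p = 0.955 in limma), with -1.18 in batch 1 and -0.97 in batch 2. The batch 2 change was -1.41 and passed the thresholds without replicate 2 of OF. On all arrays 1 gene of the list was called higher in batch 2 and 1 lower. The median change of the list in batch 2 was -0.09, or -0.07 without that array. The apolipoprotein genes apoa1a, apoa2, apoba and apobb.1 lay lower with OF in batch 1 and higher in batch 2. hnf4a lay lower in both batches. The part of hnf4a in the apolipoprotein values was not tested.

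pparab, for a fatty acid sensor of the liver, fell by 1.38 over both batches (SE 0.37, adjusted p = 0.955 in limma), with -2.06 in batch 1 and -0.71 in batch 2, or -1.17 and past the thresholds there without replicate 2 of OF. foxa3 and srebf2, for a liver pioneer factor and the regulator of cholesterol synthesis, had lower changes in batch 2 than in batch 1, with differences of -1.73 and -1.68 that passed the thresholds. That of srebf2 was -1.14 and did not pass without replicate 2 of OF in batch 2.

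**Figure D4:**
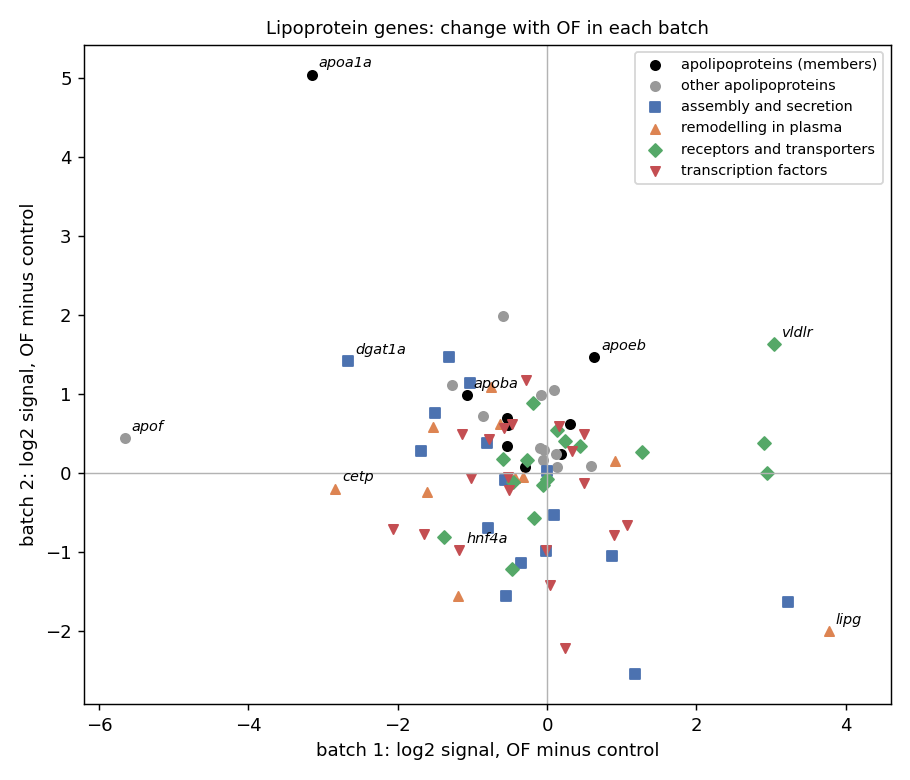
Change in log2 signal, OF minus control, in batch 1 (horizontal axis) and in batch 2 (vertical axis) for the apolipoprotein genes and 5 lists of lipoprotein genes; each point is 1 gene and the batches share no array. apoa1a and apof lie far to the left at -3.15 and -5.66, lipg to the lower right at 3.77 and -2.00, and vldlr in the upper right at 3.05 and 1.63.

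For each apolipoprotein gene, the most alike profiles were sought among 7077 clusters of 1 symbol with a mean log2 signal of at least 5, by Pearson's r over the 8 arrays after the mean of each batch was taken off. With so many clusters and 8 arrays, high values arise for any gene, and they are given as a description. For apoa1a the nearest were sod3a (r = 0.9947) and zgc:64106 (0.9943), and for apoa2 they were amdhd2 (0.9943) and ephx2 (0.9933). For apoba they were LOC100004411 (0.9947) and nat15 (0.992), and for apobb.1 dbnlb (0.9876) and nt5c2b (0.9835). apoeb was nearest to midn (0.965) and zgc:56095 (0.9592), and apoc2 to gpatch1 (0.9784) and cdh5 (0.9768). apoa1b was nearest to ndufa8 and vegfab, and the dim apoa4a and apoea to trpc4apb and cntrl and to spen and zfand6.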

How the data were processed

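Liver RNA (RIN over 7 by the labels) was hybridised to ZebGene 1.1 ST arrays, 1 per sample. The authors summarised and normalised the probe intensities in Transcriptome Analysis Console (GC-count normalisation and signal space transformation) and deposited log2 signals per transcript cluster. For the genome build behind the cluster annotation, the sources used here give nothing. The worksheets also hold the authors' fold changes, p-values and adjusted p-values, which were not used. Of 59384 worksheet clusters, 84 control sequences were left out. The number of columns of per-sample values that could not be mapped was 0.

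Groups came from the sample titles. Linear models (lmFit, then eBayes) were run on these signals in limma, version 3.58.1 under R 4.3.3, two-sided and with Benjamini-Hochberg adjustment over 59300 clusters, with batch as a term, within each batch, and for the interaction of batch and OF. With 2 arrays per group, their number limits the precision. The members and lists were chosen with earlier results of these data known. From each list, up to 3 genes with the smallest p over both batches and for the difference between batches are named, although the rule as written also covered the fits within each batch; 1 gene that the rule names is not reported here. Others where a count or a contrast with a member called for them were chosen after their values were seen (apoa4b.3, apobb.2 and ldlra). mttp stands in the files as mtp, and creb3l3b and apobb.2 under LOC symbols, matched through Entrez identifiers. For a listed gene with more than 1 cluster the brightest was taken, as for apof and mttp with 2 each.

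Alternatives were quantile normalisation, a filter on dim clusters, all clusters of the value table, no batch term, a fit over all 8 arrays, the replicate number as a block, an adjusted p as threshold, and each array left out in turn.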

Additional observations from a re-analysis of the deposited data

Results flagged for a closer look

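Of the 43 named genes examined, 19 stood out for the OF change in the 2 batches. Up to 3 genes of each pathway list were named for the smallest p of this very difference, so that the count is not evidence of how common it is. For 18 the interaction of batch and OF in limma passed a fold over 2 at an unadjusted p under 0.05, while no adjusted p was under 0.05 (0.12 to 0.324). Among the apolipoprotein genes the batch 2 change exceeded that of batch 1 by 8.2 for apoa1a, 2.07 for apoba, 1.24 for apoa2 and 1.13 for apobb.1. For apoc2 it exceeded it by 0.88. Both OF arrays of apoc2 lay below both controls in batch 1 and above both in batch 2. In batch 1 the first of them was level with the lower control to the printed digits. The test of the difference itself did not pass (adjusted p = 0.49 in limma).

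Among the other apolipoproteins the difference was 6.1 for apof, 2.58 for apoa4b.3, 1.59 for apoc4 and 1.07 for apom. It was 4.09 for dgat1a, 2.18 for creb3l3b and -1.92 for sec24c, of the assembly genes. It was 2.64 for cetp, 1.84 for lcat, 1.38 for lpl and -5.77 for lipg, of the remodelling genes. lrp1ab differed by 1.07, foxa3 by -1.73 and srebf2 by -1.68. In all clusters 6.42% differed upward and 5.88% downward by these thresholds. The vitellogenin and esr1 levels differ between the same groups of arrays, and their part was not tested.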

How the results depend on the processing

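With an adjusted p under 0.05 as the threshold, the numbers of apolipoprotein genes called went from 1, 2, 2 and 4 (over both batches, in batch 1, in batch 2 and for the difference) to 0 in each. The replicate number did not pair the arrays (correlation of same-numbered deviations 0.113 in batch 1 and -0.0727 in batch 2), and with it as a block the count in batch 2 was 1, since apoeb no longer passed. Under quantile normalization the difference between batches of apoa4a turned to -0.0847. The other 161 values of single genes under these alternatives kept direction and side of the fold and unadjusted p thresholds. The adjusted p of apoa1a in batch 1 (0.152) was 0.0196 with dim clusters left out and 0.0196 to 0.628 over all alternatives, and that of its difference between batches (0.15) was 0.0295 without replicate 1 of OF in batch 2 and 0.0295 to 0.336 over all. Each gene had 1 cluster, so that a mean over clusters gave no other value. With each array left out in turn, where a lone array was assumed to vary like the other arm, the counts ran from 0 to 1 over both batches, 1 to 3 in batch 1, 0 to 3 in batch 2 and 3 to 5 for the difference. Over both batches the count was 0 without replicate 2 of the batch 1 controls, replicate 1 of OF in batch 1 or replicate 2 of either group of batch 2. In batch 1 it was 1 without replicate 1 of the controls and 3 without replicate 1 of OF. In batch 2 it was 1 without replicate 1 of the controls, 0 without replicate 2 of them, 3 without replicate 1 of OF and 1 without replicate 2 of OF. For the difference, it was 5 without replicate 1 of OF in batch 1 and 3 without replicate 2 of OF in either batch. Changes over both batches turned sign for apoa1a (-0.69 to 1.89), apoa2 (-0.16 to 0.23), apoba (-0.38 to 0.24), apobb.1 (-0.11 to 0.23) and apoc2 (-0.24 to 0.20). So did apoa4a in batch 1 (-0.0062 to 0.39), apoa1b in batch 2 (-0.0272 to 0.18), apoea in batch 2 (-0.10 to 1.36), and the differences between batches of apoa4a (-0.15 to 0.25) and apoea (-0.41 to 1.05). The cause was not tested.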
